A study of Homo sapiens with 4 samples.

Results

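The regions described here are the Argonaute PAR-CLIP regions of 2 windows of human chromosome 19 that hold clusters of zinc finger genes. They were chosen by position alone, as the entries of the deposited list on chromosome 19 of hg19 whose start lies from 52300000 to 54100000 (the 19q13.41 window) or from 56200000 to 59128983 (the 19q13.43 window), on either strand. Together the windows held 1947 of the 211947 regions of the list, 0.919% of it. The 19q13.41 window held 484 of them and the 19q13.43 window 1463.

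In PAR-CLIP, RNA that has taken up a photoreactive form of uridine is crosslinked to a protein by ultraviolet light, and what comes down with the protein is sequenced. All 4 libraries came from HEK293, an established human embryonic kidney cell line, fed 4-thiouridine for 16 h and irradiated at 365 nm. The 3 AGO1 libraries came from cells that stably express AGO1 with a His/FLAG/HA tag, were labelled at 200 µM and were precipitated with an antibody to FLAG. The 1 AGO2 library was labelled at 100 µM and precipitated with the antibody AGO2 11A9, and its own labels name no tag, whereas the series text speaks of tagged lines for both proteins. AGO1 came from an expressed transgene, and the labels do not say whether the lines were single clones. The list gives 1 score per region, with no value per library and no statement of which libraries entered it, so AGO1 and AGO2 could not be compared, the read depth is unknown and no value has a replicate error. Differences between the windows and other regions were therefore not tested, and the Wilson 95% intervals below cover counting error only. Regions of 1 transcript share their source and are not replicates of each other.

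Argonaute proteins carry microRNAs and hold them on matching RNA, where they bring about translational repression and decay of the mRNA. The zinc finger genes of chromosome 19 mostly encode KRAB zinc finger proteins, which bind DNA and silence retroelements and other sequences through the corepressor TRIM28. Their DNA-binding part is a row of C2H2 fingers, each a module of 28 residues with its linker, so that the coding RNA repeats itself every 84 nt, usually within 1 long last exon. The genes arose by local duplication and lie side by side. MicroRNA sites that recur in such coding repeats have been described in the literature for several zinc finger genes.

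Regions were placed by their hg19 position and were not assigned to genes, since an hg19 annotation was not used here. For the names alone, the RefSeq table of the assembly GRCh38.p14 lists 1451 protein-coding genes on chromosome 19, of which 250 (17.2%) carry a symbol that begins with ZNF and a number. In its gene order, 65 protein-coding genes run from USP29 to MZF1, the last on the chromosome, and 43 of these 65 carry such a symbol. The order begins with USP29, ZIM3, DUXA, ZNF264, AURKC, ZNF805, ZNF460 and ZNF543, and ends with ZBTB45, TRIM28, CHMP2A, UBE2M and MZF1. MZF1 encodes a zinc finger factor, UBE2M a conjugating enzyme of the NEDD8 pathway, CHMP2A a part of the ESCRT membrane machinery and AURKC a mitotic and meiotic kinase. None of the values below is a value of a named gene.

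Regions were dense in both windows, more so in the distal one. The 19q13.43 window held 499 regions per Mb (exact Poisson 95% interval 474 to 526) and the 19q13.41 window 269 (245 to 294), against 219 (215 to 223) over the rest of chromosome 19 and 152 (136 to 170.0) over the 2.10 Mb between the windows. Further zinc finger blocks of the chromosome ranged widely around these values. Density was 1133 per Mb in a block on 19q13.31, 812 on 19q13.12, 308 on 19p13.2 and 126 on 19p12. The number of expressed genes in each block was not measured, so density per gene is not given.

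**Figure D1:**
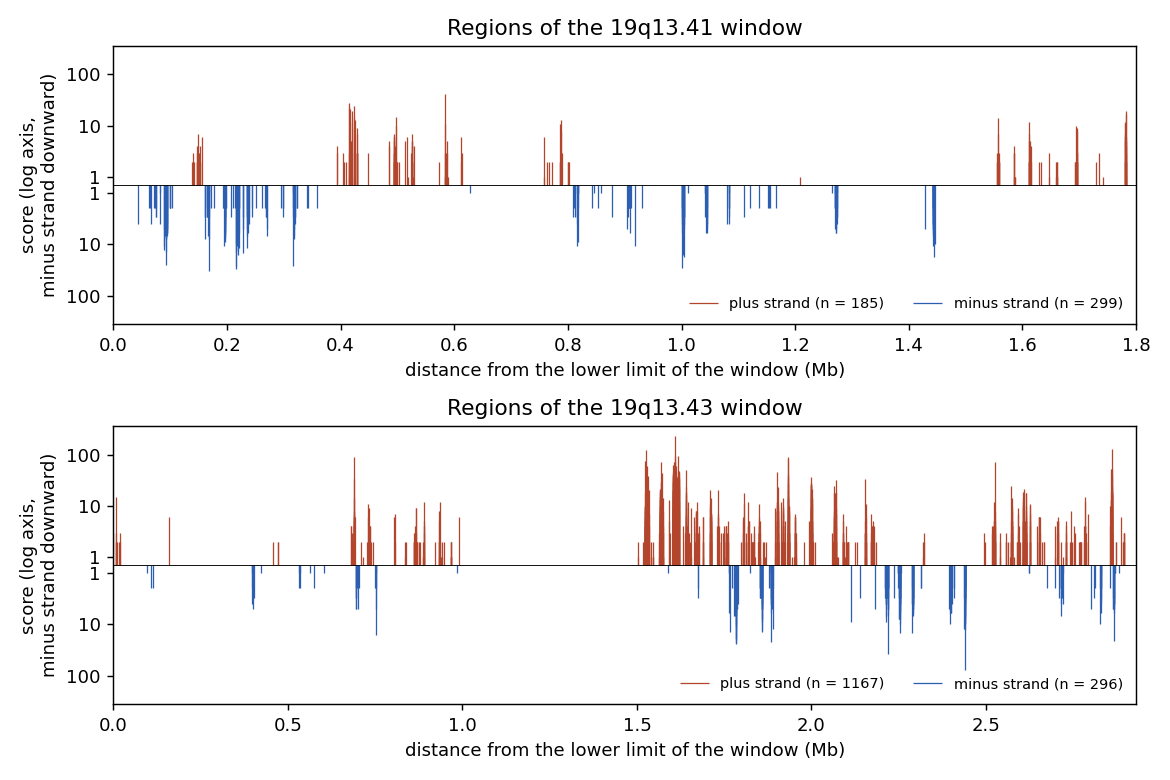
Score of each region (vertical, log axis, plus strand upward and minus strand downward) against its distance from the lower limit of its window (horizontal, Mb), with the 19q13.41 window above and the 19q13.43 window below; each line is 1 region. Long stretches carry regions on a single strand, and the 19q13.43 window has a stretch of 512 kb without any region.

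The strand of the regions changed in long stretches along both windows. In the 19q13.41 window 299 regions lay on the minus strand and 185 on the plus strand. In the 19q13.43 window 1167 lay on the plus strand (79.8%, 77.6 to 81.7) and 296 on the minus strand. The plus strand held 51.7% of the whole list. In the further zinc finger blocks it held from 37.5% (19q13.12) to 75.3% (19q13.31). Of the 15 bins of 100 kb in the 19q13.41 window with at least 10 regions, 11 held regions of 1 strand alone. So did 5 of 19 such bins in the 19q13.43 window. Bins were not counted outside the windows, so how common single-strand bins are elsewhere is not given. The bin with the most regions in the 19q13.41 window, from 52500001 to 52600000, held 71, all on the minus strand. The fullest bin of the 19q13.43 window, from 57800001 to 57900000, held 258, of which 256 were on the plus strand.

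Other stretches held no region on either strand. The longest ran from 57191339 to 57702851, 512 kb, and the next in the 19q13.43 window from 56360766 to 56596585, 236 kb. In the 19q13.41 window the longest ran from 53573516 to 53727774, 154 kb. At the window limits, the first region inside the 19q13.41 window (52342708 to 52342756, score 4) lay 42.7 kb from the lower limit and the last one outside it (52207608 to 52207629, score 2) 92.4 kb. The last inside its upper limit (54082791 to 54082815, score 3) lay 17.2 kb away and the first beyond it (54158371 to 54158400, score 4) 58.4 kb. The 19q13.43 window began less clearly, with a region at 56200236 to 56200272 (score 3) inside and one at 56196780 to 56196800 (score 2) outside. Its last region, 59095672 to 59095755 (score 3), was also the last of the chromosome.

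Regions of opposite strands kept apart. No region of either window overlapped a region of the other strand, against 0.386% of the whole list (Wilson upper limit for 0 of 1947, 0.197%). The blocks on 19q13.12 (0 of 1380) and 19p12 (0 of 591) had no such overlap either. The share was 0.835% on 19p13.2 and 4.41% on 19q13.31. An opposite-strand region within 1000 nt was found for 19 of the 1947 (0.976%, 0.626 to 1.52), against 4.29% of the whole list. All 19 lay in the 19q13.43 window, at 6 places. The closest pair, 121 nt apart, lay between 58898032 and 58898688, and 3 of the 6 places lay near the end of the chromosome, at 59055329 to 59056382, 59061942 to 59062985 and 59070628 to 59071461. The 19q13.41 window had none of 484 (Wilson upper limit 0.787%). Over the other 22 chromosomes compared, the autosomes and X, this share ran from 1.81% on X to 6.71% on chromosome 17. Zinc finger blocks did not all look alike here, since the share was 1.02% (0.466 to 2.20) in the 19p12 block and 16.0% (13.5 to 19) in the 19q13.31 block. It was 5.22% in the 19q13.12 block and 5.94% in the 19p13.2 block.

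On their own strand the regions gathered closely. A same-strand neighbour within 100 nt, measured between edges, was present for 1280 of the 1947 regions (65.7%, 63.6 to 67.8), against 53.4% of the whole list. In the 19q13.43 window the share was 70.7% (68.4 to 73.0), and in the 19q13.41 window 50.6% (46.2 to 55.1). The other chromosomes ranged from 47.5% to 57.3%. Close spacing was common on chromosome 19, with 58.7% (57.8 to 59.5) outside the windows, 61.2% in the 19p13.2 block, 67.0% in the 19q13.12 block and 69.7% in the 19q13.31 block, though 51.3% in the 19p12 block. At the other end of the scale, 33 regions (1.69%, 1.21 to 2.37) had no same-strand neighbour within 10000 nt, against 8.32% of the whole list and from 4.95% to 14.1% over the other chromosomes. There were 13 among the 484 regions of the 19q13.41 window (2.69%, 1.58 to 4.54) and 20 among the 1463 of the 19q13.43 window (1.37%, 0.887 to 2.10). A low share was again common on chromosome 19, with 3.65% (3.33 to 4.00) outside the windows, 0.870% in the 19q13.12 block and 1.03% in the 19q13.31 block.

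Most regions belonged to arrays. An array is a run of at least 10 regions of 1 strand with at most 1000 nt from 1 region to the next. The windows held 45 arrays, which took in 1277 of the 1947 regions (65.6%, 63.4 to 67.7), against 40.4% of the whole list. Arrays held 79.9% of the summed score of the windows, against 52.3% for the whole list. This score share was 84.7% in the 19q13.43 window and 57.2% in the 19q13.41 window. In the blocks it was 84.9% on 19q13.31, 82.2% on 19q13.12, 58.7% on 19p13.2 and 47.6% on 19p12. The share of regions in arrays was 69.9% (67.5 to 72.2) in the 19q13.43 window and 52.7% (48.2 to 57.1) in the 19q13.41 window. Both were above the other chromosomes, which ranged from 33.4% on chromosome 11 to 44.1% on chromosome 1. In the blocks on 19q13.31 and 19q13.12 the share was 79.4% and 69.6%, and in those on 19p13.2 and 19p12 it was 47.0% and 44.3%. Outside the windows and the 4 blocks, chromosome 19 had 35.8% (34.8 to 36.9) of its regions in arrays.

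**Figure D2:**
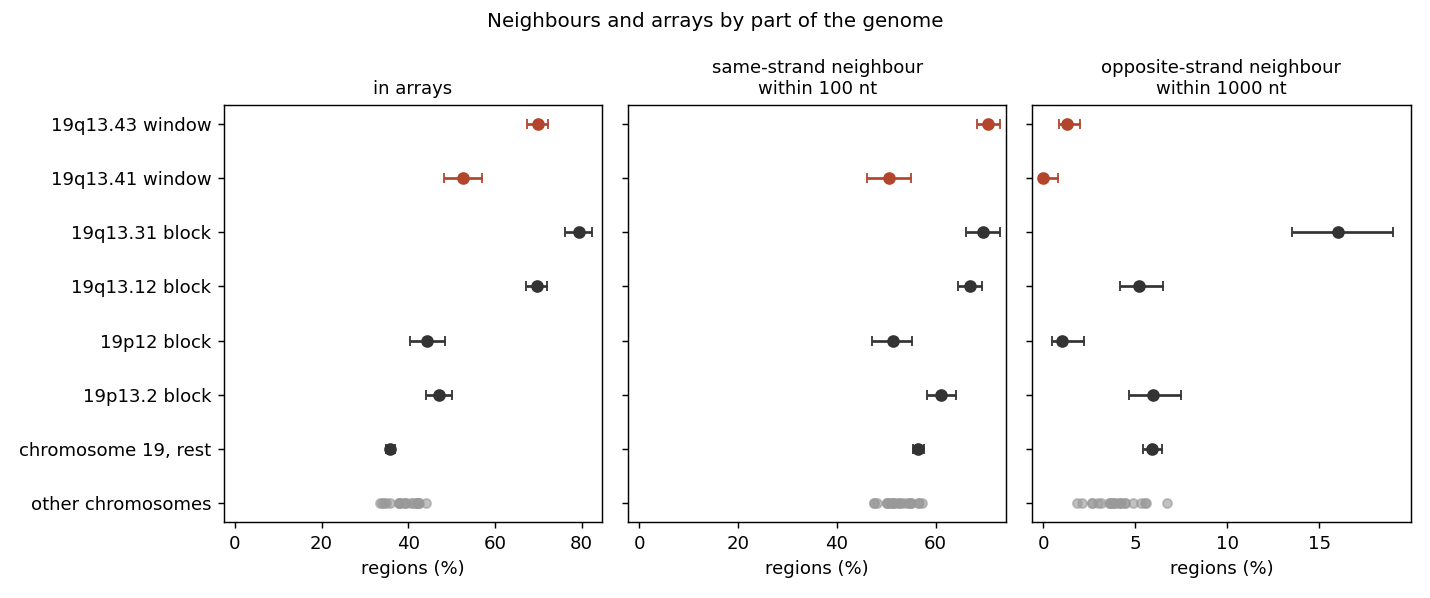
Percent of regions in arrays (left), with a same-strand neighbour within 100 nt (middle) and with an opposite-strand neighbour within 1000 nt (right), by part of the genome. Grey points are the other 22 chromosomes, the autosomes and X, the rest of chromosome 19 is what lies outside the windows and the 4 blocks, and bars are Wilson 95% intervals; the 19q13.43 window stands at 69.9%, 70.7% and 1.30%, the 19q13.41 window at 52.7%, 50.6% and 0.

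Arrays of the 19q13.43 window held many regions. Over both windows the arrays held a median of 20 regions, against 16 for the 4275 arrays elsewhere. The median was 22 in the 19q13.43 window and 17 in the 19q13.41 window. Of the 45 arrays, 7 (15.6%) held 40 regions or more, against 6.15% elsewhere. These 7 lay in the 19q13.43 window, since the largest of the 19q13.41 window held 34. For scale, 1277 regions lay in the 45 arrays of the windows. In the blocks, 540 lay in 17 arrays on 19q13.31, 961 in 34 on 19q13.12, 507 in 27 on 19p13.2 and 262 in 10 on 19p12. The arrays of the windows spanned from 1181 to 17855 nt, with a median of 3447 nt. By span those of the 19q13.43 window were not longer, with a median of 3396 nt against 3571 nt in the 19q13.41 window. The median score within an array ran from 2 to 8. Neighbouring arrays tended to share their strand: of 43 pairs of consecutive arrays, 9 (20.9%) were on opposite strands, against 45.0% of 3997 such pairs on the other chromosomes. Consecutive arrays were a median of 37.0 kb apart in the windows and 251 kb on the other chromosomes, and among pairs within 100 kb of each other the shares were 18.2% of 33 and 35.7% of 1295.

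The 3 arrays with the most regions followed each other on the plus strand of the 19q13.43 window within 100 kb, just after the longest empty stretch. The first ran over chr19:57722749-57732422, with 75 regions and a summed score of 803. The next lay at chr19:57764468-57773895, with 92 regions and a summed score of 763. The third, at chr19:57802074-57819928, had 174 regions and a summed score of 2896. These 3 held 17.5% of the regions of both windows and 35.9% of their summed score. They belonged to a longer plus-strand series, since all 11 consecutive arrays from 56888348 to 57958505 were on that strand.

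Smaller arrays of the 19q13.43 window were found on both strands. Of the 5 next by number of regions, 4 were on the plus strand. These lay at chr19:58264055-58269453 with 48 regions and a highest score of 32, at chr19:58805735-58814993 with 48 regions and a highest score of 21, at chr19:58196720-58202077 with 45 regions and a highest score of 37, and at chr19:58131557-58136081 with 37 regions and a highest score of 88. The 1 on the minus strand, at chr19:57980414-57985776, had 44 regions and a highest score of 24. The densest of these was the array at 58264055, with 8.89 regions per kb, and the sparsest that at 58805735, with 5.18.

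Arrays of the 19q13.41 window held fewer regions and were mostly on the minus strand, 9 of 13. Those with the most regions had 34 each, at chr19:52389760-52395088 with a summed score of 194 and at chr19:52516571-52521680 with a summed score of 243. Next came 25 regions at chr19:53741689-53745583, 21 at chr19:52494647-52497842, 20 at chr19:52615955-52620169, 18 at chr19:53569945-53573515 and 17 at chr19:53300746-53304929. These 7 were on the minus strand. The next array, with 16 regions at chr19:52793357-52795952, was on the plus strand, as was another of 16 at chr19:54080042-54082815. All 5 minus-strand arrays between 52389760 and 52620169 followed each other without a plus-strand array in between.

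**Figure D3:**
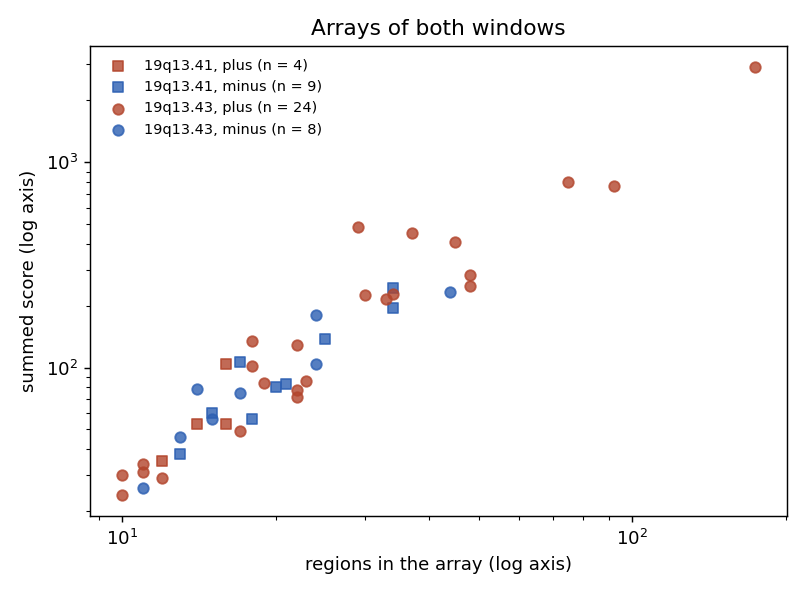
Summed score (vertical, log axis) against number of regions (horizontal, log axis) for each of the 45 arrays of both windows. Squares are arrays of the 19q13.41 window and circles those of the 19q13.43 window, with the plus strand in red and the minus strand in blue; the array with 174 regions and a summed score of 2896 stands apart from the others.

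By median score the order was different. The array with 174 regions came first, with a median score of 8 and 75 regions of score 10 or more. The array nearest the end of the chromosome, at chr19:59058744-59062087, came next with a median of 7. Its 29 regions included 13 of score 10 or more, covered 54.1% of its span and had a summed score of 483, where the 5 smaller arrays of the 19q13.43 window given above ran from 233 to 450. A median of 5 was shared by several arrays, among them those at 57722749 and 57764468.

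Scores in the windows were mostly low, as in the list as a whole. The score, rounded here to a whole number, runs from 1 to 1000 and is of unstated meaning, per the values of the deposited list. The median was 3 in each window and in the whole list, with an interquartile range of 2 to 5 in the 19q13.41 window, 2 to 6 in the 19q13.43 window and 2 to 5 in the whole list. Score 1 was held by 215 regions (11.0%, 9.73 to 12.5), against 14.1% of the whole list. Scores of 10 or more were held by 298 (15.3%, 13.8 to 17.0), against 11.0% of the whole list. The share was 17.1% (15.2 to 19.1) in the 19q13.43 window and 9.92% (7.56 to 12.9) in the 19q13.41 window. In the blocks it was 13.1% on 19q13.12, 12.4% on 19q13.31, 9.74% on 19p13.2 and 6.09% on 19p12. Of the 298 regions of the windows, 125 lay in the 3 arrays with the most regions. Without the array of 174 regions the share over both windows was 12.6%, and without all 3 it was 10.8%. Very high scores were few, as 3 regions (0.154%, 0.0524 to 0.452) reached 100, against 0.264% of the whole list.

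The highest score of the windows, 225, belonged to a region of 123 nt at chr19:57809122-57809244 on the plus strand, within the array of 174 regions. A second region past 100, of 314 nt and score 127, lay at chr19:59061536-59061849 near the 3′ end of the array at 59058744. The other one was a region of 109 nt and score 125 at chr19:57724745-57724853, in the array at 57722749. Below 100 followed chr19:57819001-57819219 (score 94), chr19:57809511-57809717 (score 93), chr19:56889435-56889504 (score 89), chr19:58134221-58134306 (score 88) and chr19:58132924-58132996 (score 81). The last 2 of the 10 highest were chr19:58639916-58639992 (score 78), the only one on the minus strand, and chr19:57724400-57724560 (score 76). All 10 lay in arrays and 6 of them were at least 100 nt wide, a width reached by 2.57% of all regions of the windows and by 1.81% of the whole list. Without the array of 174 regions the share of the windows was 1.69%, and without the 3 arrays with the most regions 1.31%.

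In the 19q13.41 window no score passed 41, and 5 of the 10 highest scores lay in arrays. The highest belonged to a region of 32 nt at chr19:52883031-52883062 on the plus strand, in a run of 5 regions. Scores of 28 and 23 lay in another plus-strand run of 5, at chr19:52714571-52714609 and chr19:52714663-52714726, and a score of 24 in a further such run, at chr19:52724291-52724386. A score of 33 at chr19:52467734-52467797 lay in a run of 7 on the minus strand. The other 5 of the 10 highest lay in minus-strand arrays, with scores of 31 and 26 at chr19:52516571-52516667 and chr19:52516876-52517027, 29 at chr19:53300746-53300807, 26 at chr19:52616733-52616774 and 25 at chr19:52393160-52393315. Of these 10 regions 8 were narrower than 100 nt.

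Regions in arrays were wider and had higher scores than those outside them, in the windows as in the list. Inside the arrays of the windows the median width was 37 nt and 19.7% had a score of 10 or more, against 31 nt and 6.87% outside. For the whole list the same values were 36 nt and 16.5% inside arrays, and 30 nt and 7.36% outside.

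Along the array of 174 regions the score varied in a broad pattern. Its regions covered 58.2% of 17855 nt, with a median gap of 18 nt and no gap above 334 nt. From 0 to 2 kb from its 5′ end the median score was 10, from 2 to 4 kb it was 14, from 4 to 6 kb 11 and from 6 to 8 kb 10. From 10 to 12 kb it was 3, and it stood at 9 from 16 kb to the 3′ end. The summed score was 526 in the stretch with the highest region (6 to 8 kb), 494 from 2 to 4 kb and between 170 and 187 in each of the 4 stretches from 8 to 16 kb.

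**Figure D4:**
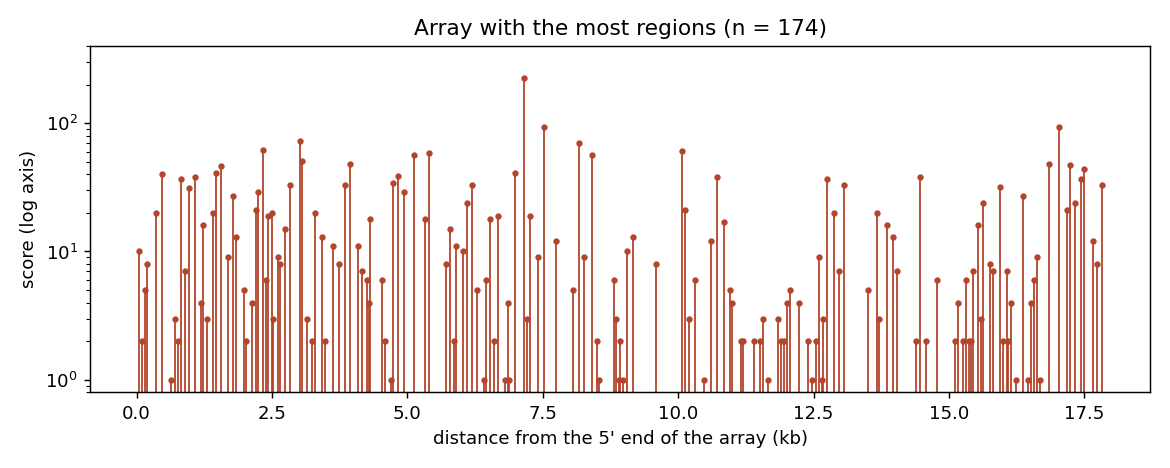
Score (vertical, log axis) of each of the 174 regions of the array at 57802074 to 57819928 against the distance of its 1-nt position from the 5′ end of the array (horizontal, kb). The highest score, 225, stands between 6 and 8 kb, and scores are low around 10 to 12 kb, where the median is 3.

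The array was 1 case of a lean toward the 5′ side. In the 45 arrays, 55.1% of the regions and 60.2% of their score lay 5′ of the array's midpoint, and 29 arrays had more score on that side. Without the array of 174 regions, 58.1% of the score lay there, in favour of the 5′ side in 28 of 44 arrays and of the 3′ side in 16. The arrays of 92 and 75 regions stayed in this share and weigh on it. They had 464 of 763 and 598 of 803 of their score on the 5′ side. In the 4275 arrays elsewhere the score was even, with 49.5% on the 5′ side. The lean was seen in the 19q13.43 window, where 61.7% of the score lay 5′ of the midpoint, while in the 19q13.41 window it was 49.6%. Many single arrays went the other way. That at 52516571, for instance, had its highest score 99.6% of the way from its 5′ end, and that at 59058744 had it at 87.4%. An array is bounded by where regions were called, so its ends need not be those of a transcript.

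Regions of the windows lay at multiples of 84 nt from each other, the coding length of 1 finger module, more often than regions of any other chromosome compared. Each region has a 1-nt position inside it, and distances were taken between these positions for all same-strand pairs 40 to 520 nt apart. Of 4843 such pairs, 755 lay within 5 nt of a multiple of 84 nt, 15.6% (14.6 to 16.6). Distances near a multiple make up 13.7% of this range, and 13.6% of the 298158 pairs of the other 22 chromosomes fell there. Pairs of 1 array share regions and are not independent, whereas this interval treats them as independent and so understates the uncertainty.

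Both windows gave the same share, 15.6% of 732 pairs (13.1 to 18.4) in the 19q13.41 window and 15.6% of 4111 (14.5 to 16.7) in the 19q13.43 window. The other chromosomes, taken one by one, ranged from 13% on chromosome 13 to 14.2% on X, with 14% on chromosome 8 the next highest. Among the zinc finger blocks the share was 16.6% (15.4 to 17.9) on 19q13.12, 15.3% (13 to 17.8) on 19p12, 14.6% (13 to 16.3) on 19q13.31 and 13.5% (12 to 15.1) on 19p13.2. Chromosome 19 outside the windows stood at 14.2% (13.7 to 14.7), and outside the windows and the 4 blocks at 13.5% (12.8 to 14.1). In 61 repeat lengths tried from 60 to 120 nt, the ratio of the windows to the other chromosomes was highest at 84 nt (1.14). Next came 83 and 85 nt, for which the distances counted largely overlap those of 84 nt. Away from 82 to 85 nt the ratio ran from 0.906 at 76 nt to 1.07 at 103 and 117 nt. The length of 84 nt was set from the protein module, but the measures were chosen with earlier results of these data known. What brings about the higher share was not tested.

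The single multiples differed. Pair counts fall with distance, so the pairs within 5 nt of a multiple were set against those midway to the next one, beside the same ratio over the other chromosomes. At 84 nt there were 143 pairs, against 140 at 126 nt, a ratio of 1.02 where the other chromosomes had 1.14. At 168 nt there were 146 against 123, a ratio of 1.19 beside 1.05, and at 252 nt 124 against 114, a ratio of 1.09 beside 1.03. At 336 nt there were 116 against 87, a ratio of 1.33 beside 1.02, and at 420 nt 115 against 92, a ratio of 1.25 beside 1.03. The ratio of the pooled windows was thus below that of the other chromosomes at the first multiple and above it at each of the next 4. The 19q13.43 window alone, with most of the pairs, did the same, at 1.05, 1.19, 1.11, 1.37 and 1.12. The 19q13.41 window, with 10 to 23 pairs per count, had 0.857, 1.16, 1, 1.09 and 2.30. It was thus below the other chromosomes at 252 nt too. Chromosome 19 outside the windows and the 4 blocks, with far fewer pairs than the other chromosomes, had ratios from 0.960 to 1.16. The ratio of 1.16 was at 252 nt, above that of the windows. Folded at 84 nt, the pairs of the windows stood at 1.26 times an even spread at offsets of -2 to 1 nt and at 0.828 at offsets of -30 to -27 nt, with a smaller rise to 1.09 at -42 to -39 nt.

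**Figure D5:**
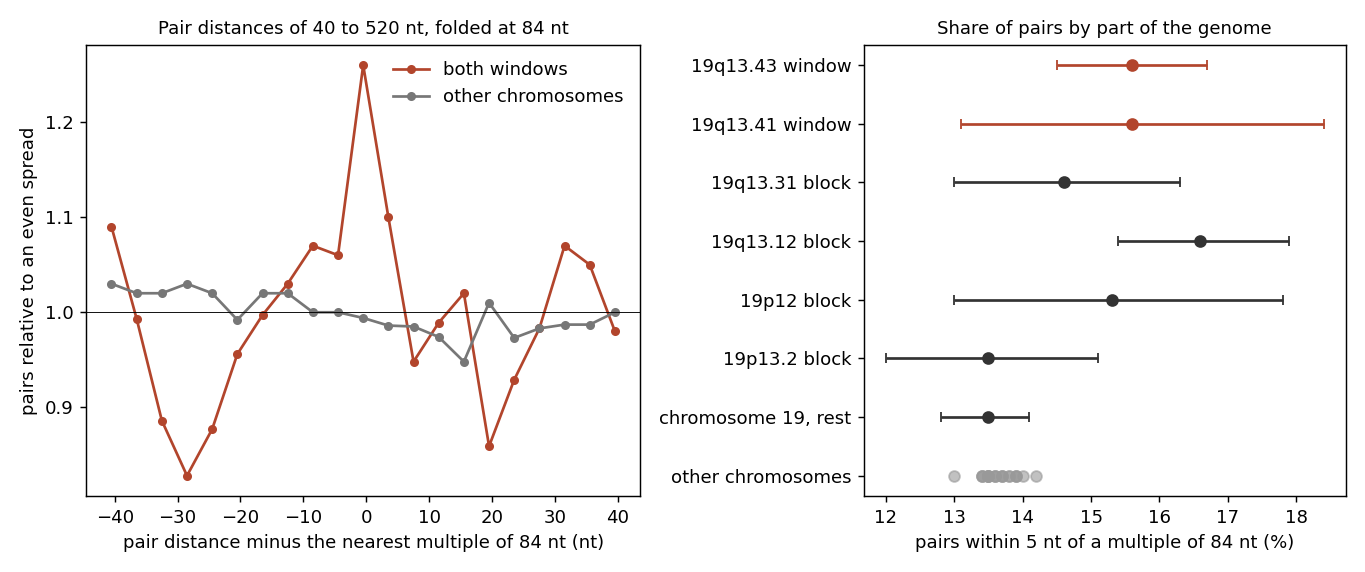
Left, same-strand pairs of 1-nt positions 40 to 520 nt apart, folded at 84 nt (horizontal, offset from the nearest multiple in bins of 4 nt; vertical, pairs relative to an even spread over these distances), for both windows and for the other 22 chromosomes pooled. Right, percent of pairs within 5 nt of a multiple of 84 nt by part of the genome, with Wilson 95% intervals, the other chromosomes as grey points and the rest of chromosome 19 taken outside the windows and the 4 blocks; both windows stand at 15.6%, and the other chromosomes lie from 13% to 14.2%.

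Arrays differed in how far they showed the repeat length. Of the 23 arrays of the windows with at least 50 pairs, 18 (78.3%) exceeded 13.6%, against 49.2% of 1654 such arrays on the other chromosomes, and their median share was 16.6%, against 13.5%. The highest shares were 29.2% of 65 pairs in the array at chr19:57867780-57871257, 25.8% of 89 in that at chr19:58637750-58640872, 23.7% of 135 in that at chr19:58101441-58105258 and 20.2% of 109 in that at 52516571. These 4 were the ones above 20%, 17.4% of the 23, where 95 (5.74%) of the 1654 on the other chromosomes exceeded 20% too. The 4 were chosen after their values were seen. The 2 arrays with the most regions were below 13.6%. The array of 174 regions had 12.9% of 821 pairs and that of 92 regions 13% of 422, whereas that of 75 regions had 17.5% of 303. Without the array of 174 regions the share over both windows was 16.1%. On the 5′ side of the arrays' midpoints it was 16.4% of 2536 pairs (15.1 to 17.9), and on the 3′ side 14.5% of 1590 (12.8 to 16.3), with overlapping intervals. Whether the pairs near a multiple lie in coding sequence was not tested, since no hg19 sequence or annotation was used here.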

How the data were processed

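The deposited file is 1 list of PAR-CLIP regions; which of the 4 libraries entered it is not stated. The build is hg19 and a filter named with the value 0.05 was applied, per the file headers. Reads were handled with BWA 0.5.8c, per the submitters' processing notes, and the sources used here name no region caller. Each 1-nt position was used as deposited by the authors, and each score after rounding to a whole number. What the scores and positions count is not stated. Coordinates are printed counting from 1.

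Neighbours, runs, arrays and pair distances were computed with Python 3.11.15, numpy 2.4.6, pandas 2.3.3 and scipy 1.17.1, and plotted with matplotlib 3.10.9. Runs were formed over the whole list. On simulated regions, 8 of 8 measures were recovered. The zinc finger blocks compared were 9200000 to 12700000 (19p13.2), 19700000 to 24400000 (19p12), 36600000 to 38300000 (19q13.12) and 44400000 to 45000000 (19q13.31); their limits are approximate. Named regions were the 10 highest scores of each window, and named arrays the 8 with the most regions of each window and the 3 with the highest median score; the array at 54080042 was added for its tie by number, and those named for their spacing were chosen after their values were seen. The windows, lists and measures were chosen with earlier results of these data known. Alternatives changed the score minimum, the windows, the distance rule, the run gap, the thresholds and the spacing rule. A planned search for microRNA seed matches needs the hg19 sequence and was not run.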

Additional observations from a re-analysis of the deposited data

How the results depend on the processing

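No paired analysis was possible because values of single libraries are not part of the list. The seed-match result and its alternatives were not run. Of 44 alternatives for 7 results, 7 were added after the data were seen; 20 values stayed within the 95% interval of the value reported and 24 did not.

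The density of 412 regions per Mb was 366 at scores of 2 or more, 239 at 3 or more, 269 in the 19q13.41 window alone and 499 in the 19q13.43 window alone. The same-strand share of 65.7% was 63.0% at scores of 3 or more, 50.6% and 70.7% in the windows alone, 56.2% between 1-nt positions and 62.5% without the array with the most regions. The share in arrays of 65.6% was 60.9% at scores of 3 or more, 52.7% and 69.9% in the windows alone, 57.7% and 73.5% with run gaps of 500 and 2000 nt, 49.3% with at least 20 regions and 62.2% without the largest array. The opposite-strand share of 0.976% was 0.442% at scores of 3 or more and 0 in the 19q13.41 window. The median score of 3 was 5 at scores of 3 or more, which the minimum brings about. The share with a score of at least 100, 0.154%, was 0 in the 19q13.41 window and 1.18% at a threshold of 50. The spacing share of 15.6% was 10.4% within 3 nt, 23.3% within 8 nt and 14.2% over a wider range of distances. These settings change the share of distances that count as near, and under them the windows stood at 1.20, 1.11 and 1.06 times the other chromosomes. Across all 7 settings compared this ratio ran from 1.06 to 1.20.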

Other observations

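With the lower edge of a region at 0 and its upper edge at 1, the 1-nt position in the windows had a mean of 0.457 over 1352 plus-strand regions and 0.412 over 595 minus-strand regions, beside 0.454 and 0.415 over the regions outside the windows.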
